A study of Homo sapiens with 12 samples.

Results

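Expression of 10 genes of the NF-kB system was measured by RNA sequencing in SW1783 cells, a human astrocytoma line, 24 h after addition of a water extract of Aconitum carmichaeli Debeaux (ACD). The genes were the DNA-binding subunits NFKB1, NFKB2, RELA, RELB and REL, the IkB proteins NFKBIA, NFKBIE and NFKBIZ, and the feedback ubiquitin enzymes TNFAIP3 and BIRC3. They were chosen by name for their place in this system, with earlier results of these data known. All 10 were found among the 60675 gene IDs of the count table, of which 30808 had a count. Vehicle cells were given PBS with 2% DMSO, which the study also names as the solvent of the extract stock. Treatments were added to wells that held growth medium, so 2% is the strength of the added solution and not of the culture. The other groups were given the extract at 20 µg/mL (low dose), 100 µg/mL (medium dose) or 500 µg/mL (high dose), and every group held 3 libraries. The 3 doses are compared with the same vehicle libraries. All groups came from the same line, and nothing in the labels says that the 3 libraries of a group came from separate cultures, so p-values measure only the spread between these libraries. Sample titles and treatment labels name ACD as the extract, whereas the written treatment protocol describes Poria cocos. Total expected counts per library lay between 18863863 and 24200576. Levels are normalised counts, meaning counts divided by a DESeq2 size factor for the library. Changes are log2 fold changes, given with the adjusted p of the DESeq2 Wald test over all genes and the standard error (SE).

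The line was checked against marker genes of astrocytes and other cells. Of 12 astrocyte and glioma markers, 8 averaged a normalised count of at least 10, led by VIM, CD44 and CHI3L1. Among the other astrocyte markers of the list, GJA1 (4914 normalised counts with vehicle), SOX9 (1434) and SLC1A3 (690.1) were well expressed. AQP4 was at 0 in every library, and GFAP (2.79 ± 2.20, SD, n = 3), S100B (2.29 ± 2.60) and ALDH1L1 (0.584 ± 1.01) were near 0 with vehicle. Of 10 leukocyte and microglia markers, 3 reached that level (PTPRC, CSF1R and CD68), while TYROBP was at 0 in every library. The summed level of the leukocyte list was 3154 to 3320 with vehicle and 3949 to 4232 at 500 µg/mL, where CD68, a lysosomal protein, made up most of it and PTPRC and CSF1R fell. In these bulk samples, a change in the RNA per cell and a change in the share of cells that make it cannot be told apart.

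NF-kB transcription factors are dimers of REL family proteins that bind kappaB sites in DNA. In resting cells, IkB proteins such as the product of NFKBIA hold RELA dimers in the cytoplasm. In the canonical arm, signals from cytokine and Toll-like receptors activate the IKK kinases, which mark IkB for degradation. In the noncanonical arm, the kinase NIK (MAP3K14) drives processing of the NFKB2 precursor p100 to p52, which pairs with RELB. Several of the genes that NF-kB switches on encode its own subunits and inhibitors, and this forms feedback loops. In glial cells the pathway is known for its control of cytokine and chemokine genes.

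The kappaB consensus, 10 bases long, was searched on both strands of RefSeq promoter windows, which run from 250 bases before to 50 bases after a start site. Windows were found for 8 of the 10 genes, and RELB and NFKBIE had none. A match lay in at least 1 window of 7 of these 8 genes, and RELA had none in its 2 windows. Over all genes with a window, 13.3% of 27305 held a match. The sequences are shown because the genes that carry a match include genes whose change with the extract passed the thresholds and genes whose change did not. Each runs 5′ to 3′ along the strand of its gene in GRCh38.p14, and capitals mark the bases that match the consensus on either strand. In the first NFKB2 sequence and in the REL sequence, matches at 2 overlapping positions share the capitals.
NFKBIZ, chr3:101827742-101827801, plus strand: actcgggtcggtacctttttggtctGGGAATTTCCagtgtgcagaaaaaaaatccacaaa
BIRC3, chr11:102317260-102317319, plus strand: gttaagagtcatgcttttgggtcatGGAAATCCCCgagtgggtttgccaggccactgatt
BIRC3, chr11:102317324-102317383, plus strand: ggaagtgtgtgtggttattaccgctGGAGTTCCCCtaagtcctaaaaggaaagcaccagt
TNFAIP3, chr6:137867188-137867217, plus strand: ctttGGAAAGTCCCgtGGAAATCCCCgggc
NFKB2, chr10:102394462-102394490, plus strand: aaacgtcatGGGAATTCCCCcctccgggg
NFKB2, chr10:102395674-102395703, plus strand: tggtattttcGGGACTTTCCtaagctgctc
NFKBIA, chr14:35404796-35404855, minus strand: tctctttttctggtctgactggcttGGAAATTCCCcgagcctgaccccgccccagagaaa
NFKB1, chr4:102501300-102501329, plus strand: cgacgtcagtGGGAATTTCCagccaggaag
REL, chr2:60881518-60881546, plus strand: gtcagccgcGGGAAATTCCCctcccgcca

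At 500 µg/mL, 6 of the 10 genes were differentially expressed genes (DEGs), all 6 higher than with vehicle. They were NFKB2, RELB, NFKBIE, NFKBIZ, TNFAIP3 and BIRC3. A DEG had a DESeq2 Wald test adjusted p under 0.05 and a fold change over 1.5 in either direction. Over all genes tested at this dose, 18.2% were DEGs and 8.66% were DEGs with a higher level. At any fold, 8 of the 10 passed the adjusted p, against 46.5% of all genes tested. NFKB1 and REL were the exceptions. The median log2 fold change was 0.85 over the 10 genes and 0.00 over the 15282 genes whose mean normalised count was at least 10. The high dose and vehicle libraries did not overlap for 8 of the 10 genes, against 70.0% of those 15282 genes. In the likelihood ratio test across the 4 groups, 8 of the 10 genes passed, against 45.8% of all genes tested.

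**Figure D1:**
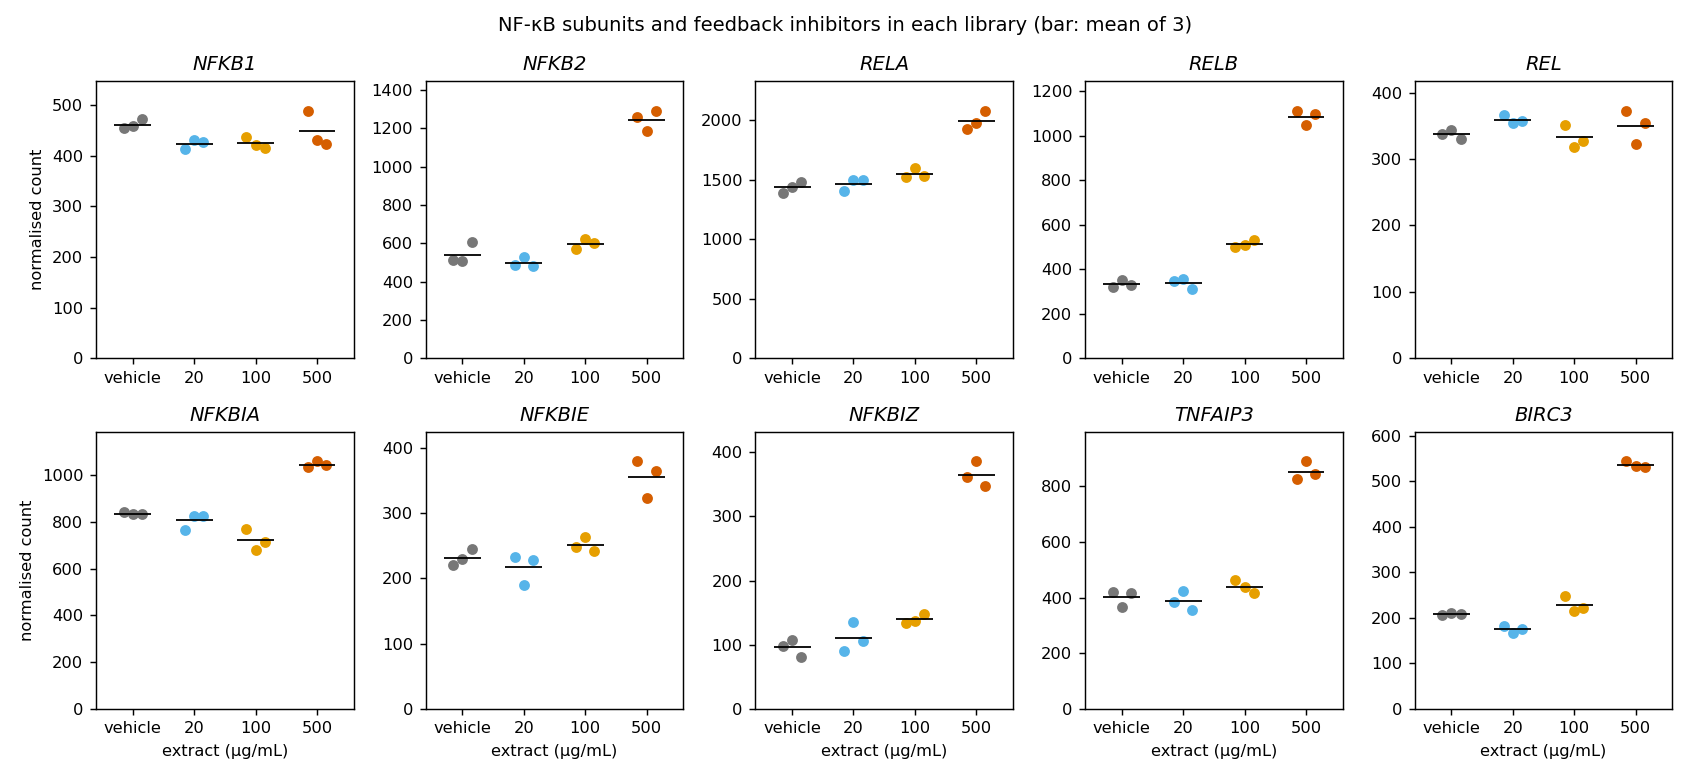
Normalised count (vertical axis, from 0) of each of the 10 genes in every library, by group on the horizontal axis (vehicle, then the extract in µg/mL). Points are libraries and bars are means of 3. For NFKB2, RELB, NFKBIZ, TNFAIP3 and BIRC3 the 3 libraries at 500 µg/mL stand apart above all others, while those of NFKB1 and REL overlap the vehicle libraries.

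RELB showed the largest change among the subunits and was the 1 gene of the 10 that was a DEG at both the medium and the high dose. RELB (ENSG00000104856, chromosome 19, 45001461 to 45038192, GRCh38) encodes the subunit that acts with p52 in the noncanonical arm. Its normalised counts were 319, 352 and 328 with vehicle, and 346, 358 and 309.7 at 20 µg/mL. They were 498, 511 and 533 at 100 µg/mL and 1113, 1047 and 1097 at 500 µg/mL. The vehicle and low dose libraries overlapped, and the medium and high dose libraries each formed a separate, higher range. Its log2 fold change was 1.70 at 500 µg/mL (adjusted p 4.44e-98, SE 0.0802), 0.63 at 100 µg/mL (adjusted p 3.95e-12, SE 0.0846) and 0.02 at 20 µg/mL (adjusted p 0.957, SE 0.0887).

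NFKB2 (ENSG00000077150, chromosome 10, 102394110 to 102402524), which encodes the p100 precursor of p52, rose at 500 µg/mL. It was at 510.3, 507 and 606 normalised counts with vehicle, 484, 530.4 and 479 at 20 µg/mL, and 568, 621 and 602 at 100 µg/mL. At 500 µg/mL it was at 1257, 1184 and 1292. The high dose libraries lay well above the rest, while the medium dose and vehicle libraries overlapped. This was a log2 fold change of 1.20 at 500 µg/mL (adjusted p 4.70e-53, SE 0.0774) and of 0.15 at 100 µg/mL (adjusted p 0.175, SE 0.0813).

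RELA (ENSG00000173039, chromosome 11, 65653599 to 65663090) encodes p65, the main activating subunit of the canonical arm. Levels were 1388, 1439 and 1482 normalised counts with vehicle, 1400, 1495 and 1496 at 20 µg/mL, 1521, 1599 and 1531 at 100 µg/mL, and 1921, 1972 and 2078 at 500 µg/mL. All high dose libraries were above all others, but the change was small. The log2 fold change of 0.47 at 500 µg/mL (adjusted p 5.83e-20, SE 0.0502) passed the adjusted p and stayed under the fold threshold.

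No change in NFKB1 or REL passed the test at any dose in the main DESeq2 fit. NFKB1 (ENSG00000109320, chromosome 4, 102501330 to 102617302) encodes p105, the precursor of p50. It ranged from 414 to 489 normalised counts over all 12 libraries, with a high dose log2 fold change of -0.05 (95% interval -0.22 to 0.12, adjusted p 0.698). The vehicle libraries lay at 454 to 472, above the low dose libraries at 414 to 430.4 and the medium dose libraries at 415 to 438, with an adjusted p of 0.556 and 0.302. REL (ENSG00000162924, chromosome 2, 60881491 to 60931612) encodes c-Rel, a subunit best known from lymphocytes. It ranged from 318 to 373, with a high dose log2 fold change of 0.05 (95% interval -0.14 to 0.24, adjusted p 0.726). The 2 genes also gave the largest adjusted p of the 10 in the likelihood ratio test, 0.563 for NFKB1 and 0.789 for REL. Both hold a kappaB match in the promoter windows printed above, as do NFKB2, NFKBIZ, TNFAIP3 and BIRC3.

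Because longer transcripts collect more reads, subunits were compared with each other per kilobase of the canonical GENCODE transcript, a length that does not follow changes in isoform. RELA mRNA was the most abundant subunit in every group and RELB and NFKB2 gained share at 500 µg/mL. With vehicle, RELA stood at 571 ± 18.6 normalised counts per kilobase (SD, n = 3), NFKB2 at 179 ± 18.6, RELB at 147 ± 7.67, NFKB1 at 114 ± 2.36 and REL at 30.4 ± 0.650. At 500 µg/mL RELB, at 481 ± 15.2, stood above NFKB2, at 413 ± 18.3, and RELA was at 791 ± 32.0. The vehicle ranges of NFKB2 and RELB did not overlap either, so the order of these subunits per kilobase was the other way round at 500 µg/mL. Of the summed level of the 5 subunits, RELB took 14.2% ± 0.790 with vehicle, 14.5% ± 1.01 at 20 µg/mL, 19.4% ± 0.644 at 100 µg/mL and 26.3% ± 0.569 at 500 µg/mL. The share of RELA was 54.8% ± 0.276 with vehicle and 43.3% ± 1.33 at 500 µg/mL, and that of NFKB1 was 10.9% ± 0.189 and 6.05% ± 0.516. The shares add up to the whole, so a rise in RELB and NFKB2 lowers the others without any fall in their own level.

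**Figure D2:**
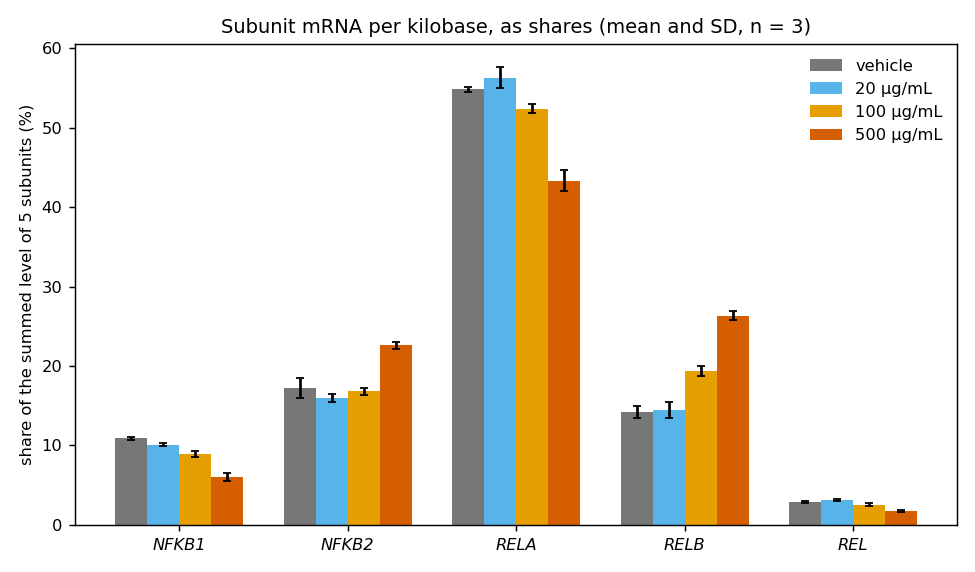
Share of each subunit (vertical axis, percent, from 0) in the summed normalised count per kilobase of the 5 subunits, by gene on the horizontal axis, with bars for the 4 groups. Bars are means and error bars SD of 3 libraries. RELB goes from 14.2% with vehicle to 26.3% at 500 µg/mL and RELA from 54.8% to 43.3%.

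Among the IkB proteins, NFKBIZ changed most and NFKBIA least at 500 µg/mL against vehicle. NFKBIZ (ENSG00000144802, chromosome 3, 101827991 to 101861022) encodes IkB-zeta, a nuclear protein that acts with p50 at a subset of target genes such as IL6. Its normalised counts were 98.4, 108 and 81.2 with vehicle, 90.4, 136 and 106 at 20 µg/mL, 134, 137 and 148 at 100 µg/mL, and 362, 386 and 348 at 500 µg/mL. The medium dose libraries lay above all vehicle libraries, and the high dose libraries far above these. NFKBIZ had a log2 fold change of 1.93 at 500 µg/mL (adjusted p 4.75e-35, SE 0.153), the largest of the 10 genes in this fit. At 100 µg/mL it was 0.54 (adjusted p 0.00474, SE 0.163), under the fold threshold. Without vehicle replicate 2 it was 0.64 at 100 µg/mL (adjusted p 0.00607), past the threshold. Over 25 alternative DESeq2 and edgeR settings it was 0.43 to 0.64 at this dose, with an adjusted p of up to 0.0611.

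NFKBIA (ENSG00000100906, chromosome 14, 35401079 to 35404749) encodes IkB-alpha, the inhibitor that is degraded and remade in each round of canonical signalling. It was at 840.3, 834 and 833 normalised counts with vehicle, 766, 826 and 826 at 20 µg/mL, 771, 678 and 714 at 100 µg/mL, and 1033, 1059 and 1044 at 500 µg/mL. The medium dose libraries lay below and the high dose libraries above all vehicle libraries. NFKBIA had a log2 fold change of -0.22 at 100 µg/mL (adjusted p 0.00541, SE 0.0658) and 0.32 at 500 µg/mL (adjusted p 1.49e-06, SE 0.0634). Both passed the adjusted p, in opposite directions, and neither passed the fold threshold. Over 25 alternative DESeq2 and edgeR settings the adjusted p at 100 µg/mL reached 0.0823.

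NFKBIE (ENSG00000146232, chromosome 6, 44258166 to 44265788) encodes IkB-epsilon, a slower feedback inhibitor. Its normalised counts were 221, 229 and 244 with vehicle, 232, 189.7 and 228 at 20 µg/mL, 248, 263 and 241 at 100 µg/mL, and 379, 323 and 364 at 500 µg/mL. The high dose libraries lay above all others. The log2 fold change of 0.62 (adjusted p 3.42e-07, SE 0.115) was just past the fold threshold, and it fell under it without high dose replicate 1, at 0.57 (adjusted p 6.66e-05), and with scaling to total counts, at 0.50 (adjusted p 3.10e-05).

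Both feedback ubiquitin enzymes rose at 500 µg/mL. TNFAIP3 (ENSG00000118503, chromosome 6, 137867214 to 137883314) encodes A20, which edits ubiquitin chains on signalling proteins upstream of the IKK kinases. Levels were 419, 366 and 418 normalised counts with vehicle, 385, 423 and 356 at 20 µg/mL, 462, 438 and 416 at 100 µg/mL, and 827, 890.1 and 843 at 500 µg/mL. The first 3 groups overlapped and the high dose libraries stood apart above them. TNFAIP3 had a log2 fold change of 1.09 at 500 µg/mL (adjusted p 1.04e-35, SE 0.0860).

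BIRC3 (ENSG00000023445, chromosome 11, 102317484 to 102339403) encodes the ubiquitin ligase cIAP2, which takes part in TNF receptor signalling and, with TRAF proteins, in the turnover of NIK. Its normalised counts were 207, 210.3 and 208 with vehicle, 181, 166 and 176 at 20 µg/mL, 248, 215 and 220.5 at 100 µg/mL, and 544, 534 and 531 at 500 µg/mL. The low dose libraries lay below the vehicle libraries, and the high dose libraries lay far above all others. The log2 fold change was 1.36 at 500 µg/mL (adjusted p 1.88e-38, SE 0.103) and -0.26 at 20 µg/mL (adjusted p 0.267, SE 0.116). The low dose difference did not pass the test.

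**Figure D3:**
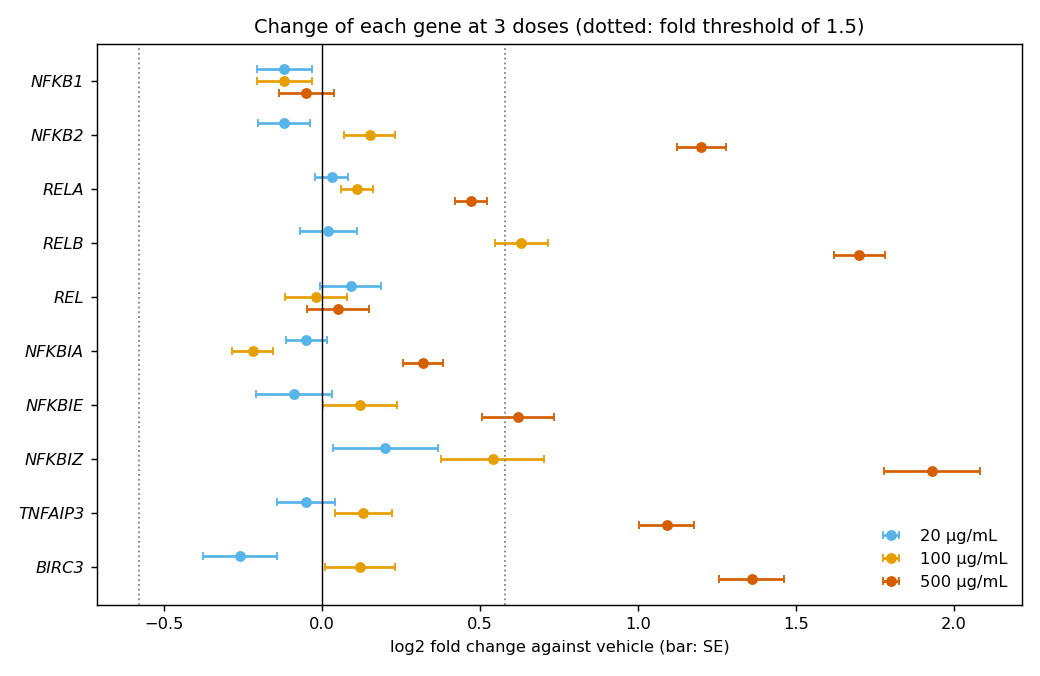
Log2 fold change against vehicle (horizontal axis) of each of the 10 genes at 20, 100 and 500 µg/mL, from the DESeq2 fit of all 12 libraries. Points are estimates, bars are standard errors and dotted lines mark a fold change of 1.5. At 500 µg/mL, 6 genes lie past the upper line, while at 100 µg/mL RELB alone does, at 0.63.

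At 100 µg/mL, RELB was the 1 DEG among the 10 genes, against 3.81% of all genes tested that were DEGs and 2.34% that were DEGs with a higher level. RELB and NFKBIZ were higher and NFKBIA lower at an adjusted p under 0.05 at any fold, which makes 3 of 10 against 29.5% of all genes tested. The differences of NFKBIZ and NFKBIA did not pass the adjusted p in every alternative setting. Those of NFKB1, NFKB2 and RELA, which did not pass here, had an adjusted p down to 0.0212, 0.0357 and 0.0130 in the alternative DESeq2 and edgeR settings. The median log2 fold change of the 10 genes was 0.12. The medium dose and vehicle libraries did not overlap for 6 of the 10 genes, against 48.0% of genes whose mean normalised count was at least 10. The RELB call did not hold with scaling to total counts, where its log2 fold change was 0.51 (adjusted p 1.41e-08). That scaling placed the median of all genes at -0.11 at both the medium and the high dose.

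At 20 µg/mL, 0 of the 8 genes with an adjusted p were DEGs, against 0.118% of all genes tested. None of them passed at any fold, against 3.29% of all genes tested. NFKBIE and NFKBIZ had no adjusted p at this dose, because DESeq2 left genes with a mean normalised count under about 263 out of the adjustment. At an unadjusted p under 0.05 there was 1 gene, BIRC3, and the edgeR quasi-likelihood test gave 0 DEGs among the 10. The low dose and vehicle libraries did not overlap for 4 of the 10 genes, against 21.7% of genes whose mean normalised count was at least 10.

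The steps between doses were also tested. Between the medium and the high dose, 5 of the 10 genes were DEGs, all higher at 500 µg/mL, against 10.2% of all genes tested that were DEGs and 4.58% that were higher. NFKBIZ had the largest step, 1.38 (adjusted p 5.23e-20, SE 0.146), followed by BIRC3 at 1.24, RELB at 1.08, NFKB2 at 1.06 and TNFAIP3 at 0.96. The steps of NFKBIA (0.54), NFKBIE (0.50) and RELA (0.36) passed the adjusted p and not the fold threshold. The step of NFKBIA was past the threshold, at 0.59 (adjusted p 3.05e-14), without medium dose replicate 1. Between the low and the medium dose, RELB was the 1 DEG, with a log2 fold change of 0.61 (adjusted p 4.06e-11, SE 0.0848), against 1.94% of all genes tested that were DEGs and 1.35% that were higher. Without low dose replicate 3 this step was 0.55 (adjusted p 4.26e-07) and without medium dose replicate 3 it was 0.58 (adjusted p 1.95e-07), both under the fold threshold. NFKB2 (0.26, adjusted p 0.0103) and BIRC3 (0.38, adjusted p 0.00742) were higher at 100 than at 20 µg/mL, under the fold threshold. Over 25 alternative DESeq2 and edgeR settings their adjusted p reached 0.0827 and 0.0819.

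The rest of the pathway was followed through 104 further genes in 7 lists, which were chosen with earlier results of these data known. These genes cover the remaining IkB family, kinases with their partners, adaptors, negative regulators, receptors, ligands and known target genes. At 500 µg/mL 95 of them had an adjusted p and 34 were DEGs, 25 higher and 9 lower, where 18.2% of all genes tested were DEGs and 8.66% were higher DEGs. At 100 µg/mL 88 had an adjusted p and 13 were DEGs, 11 higher and 2 lower, where the shares over all genes were 3.81% and 2.34%, and with scaling to total counts 10 were higher and 4 lower. At 20 µg/mL 63 had an adjusted p and 2 were DEGs, CCL2 and PTGS2, both lower, where 0.118% of all genes tested were DEGs.

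**Figure D4:**
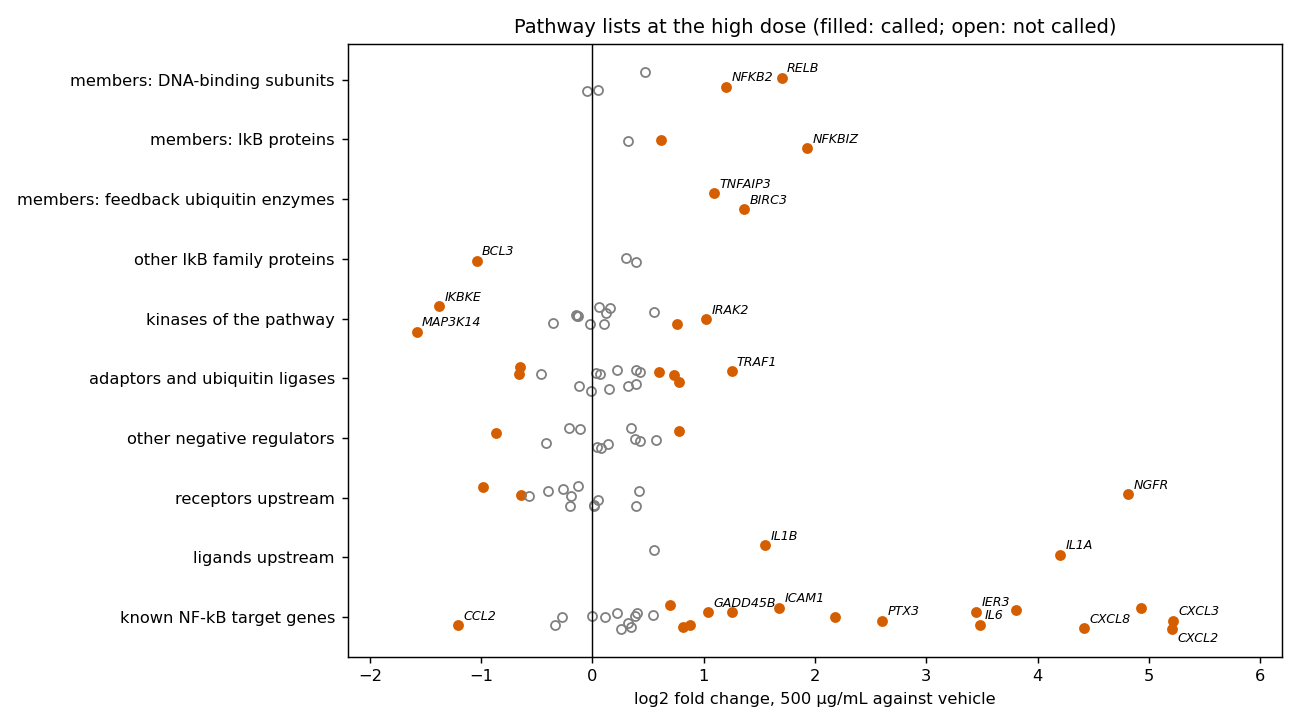
Log2 fold change at 500 µg/mL against vehicle (horizontal axis) for the genes of each list (rows) whose mean normalised count was at least 10. Filled points are DEGs and open points are not, and the vertical scatter within a row has no meaning. The rises reach past 5 among the target genes, with CXCL2 and CXCL3, while BCL3, MAP3K14, IKBKE and CCL2 lie below -1.

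Upstream of the 10 genes, the mRNA of the kinase that drives p100 processing fell while NFKB2 and RELB mRNA rose. Protein was not measured. MAP3K14, which encodes NIK, was at 1316, 1287 and 1338 normalised counts with vehicle, 1191, 1099 and 1108 at 20 µg/mL, 815, 884 and 852 at 100 µg/mL, and 449, 457 and 414 at 500 µg/mL. The 4 groups did not overlap, and each higher dose lay below the one before. Its log2 fold change was -1.58 at 500 µg/mL (adjusted p 2.54e-119, SE 0.0674), -0.63 at 100 µg/mL (adjusted p 2.10e-22) and -0.21 at 20 µg/mL (adjusted p 0.0166), the last under the fold threshold. An antisense gene, MAP3K14-AS1, lies across 15.1% of its exon bases, and whether strand was used in counting is not stated.

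The list of 14 kinase genes also holds the kinase partners IKBKG, TAB1, TAB2 and TAB3. At 500 µg/mL 2 of the 14 were DEGs with a higher level and 2 with a lower level. Of all genes tested, 18.2% were DEGs in either direction, and the median log2 fold change of the list was 0.02. IKBKE, an IKK-related kinase, fell from 189 ± 4.54 to 72.1 ± 5.64 (SD, n = 3; log2 fold change -1.38, adjusted p 6.67e-18). IRAK2, which acts below interleukin-1 and Toll-like receptors, rose from 339 ± 8.22 to 687 ± 32.3 (1.02, adjusted p 3.42e-26), and TAB3, an adaptor of the kinase TAK1, had a log2 fold change of 0.76 (adjusted p 1.44e-62).

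Of the 3 remaining IkB family genes, BCL3 fell and the other two were not DEGs. BCL3, a nuclear protein that binds p50 and p52, was at 1150 ± 99.5 normalised counts with vehicle, 1196 ± 41.7 at 20 µg/mL, 913 ± 25.0 at 100 µg/mL and 561 ± 49.1 at 500 µg/mL. Its log2 fold change at 500 µg/mL was -1.04 (adjusted p 4.93e-42, SE 0.0750), opposite in sign to that of NFKBIZ, the other nuclear IkB protein described here.

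Among 17 adaptors and ubiquitin ligases, 4 were higher DEGs and 2 were lower DEGs at 500 µg/mL, against 8.66% of all genes tested that were higher DEGs and 18.2% that were DEGs, with a median log2 fold change of 0.22. TRAF1, a signalling adaptor of TNF receptors, rose most (log2 change 1.25, adjusted p 2.59e-24, SE 0.120), followed by TRAF5 (0.78), TICAM1 (0.73) and RBCK1 (0.60), of which RBCK1 is named outside the rule after its value was seen. The lower DEGs were CARD10 (-0.66) and MYD88 (-0.65), the latter the shared adaptor of interleukin-1 and most Toll-like receptors. Among 14 other negative regulators, 13 of them tested, 1 was a higher and 1 a lower DEG, a count no higher than the 18.2% over all genes would give. TNIP1, a partner of A20, rose from 1530 to 2633 normalised counts (log2 change 0.78, adjusted p 5.55e-67, SE 0.0448), and TRAFD1 fell from 775 to 425 (log2 change -0.87, adjusted p 1.34e-26, SE 0.0792).

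Of 16 receptors, 1 was a higher DEG and 2 were lower DEGs at 500 µg/mL, with a median log2 fold change of -0.16. With 15 of them tested and 18.2% of all genes called, this count is near the background. NGFR, the low-affinity neurotrophin receptor of the TNF receptor family, was at 23.7 normalised counts with vehicle, 85.7 at 100 µg/mL and 663 at 500 µg/mL. Its log2 fold change was 4.81 at 500 µg/mL (adjusted p 1.53e-121, SE 0.203) and 1.85 at 100 µg/mL (adjusted p 1.43e-15, SE 0.220), and genes on the opposite strand cover 27.2% of its exon bases. IL1R1, the signalling receptor for interleukin-1, fell from 1021 to 653 (log2 change -0.64, adjusted p 3.49e-24, SE 0.0620), and TLR3, named after its value was seen, from 68.3 to 34.4 (log2 change -0.98, adjusted p 0.000331, SE 0.252). Of 10 ligands, 3 averaged a normalised count of at least 10. Their median log2 fold change was 1.55 at 500 µg/mL. Of the 10 ligands, 4 had an adjusted p at this dose and 2 were higher DEGs, where 8.66% of all genes tested were higher DEGs. IL1A was at 11.6 normalised counts with vehicle and 214 at 500 µg/mL (log2 change 4.20, adjusted p 1.49e-40, SE 0.310), and IL1B was at 62.8 and 185 (log2 change 1.55, adjusted p 4.20e-18, SE 0.174). Both were also DEGs at 100 µg/mL, at 1.61 (adjusted p 1.55e-05) and 0.71 (adjusted p 0.000746).

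Of 29 known target genes with a matched ID, 15 were higher DEGs and 1 was a lower DEG at 500 µg/mL, against 8.66% of all genes tested that were higher DEGs, and the median log2 fold change was 0.81. At 100 µg/mL 8 were higher DEGs, against 2.34% of all genes, and 1 was lower, with a median of 0.18. At 20 µg/mL 2 were lower DEGs, where 0.118% of all genes were DEGs in either direction, with a median of -0.07. Because this list was chosen with earlier results of these data known, these counts are given as a description. CXCL8, which encodes the neutrophil chemokine interleukin-8, was at 91.2, 104 and 107 normalised counts with vehicle, 89.5, 66.3 and 100.5 at 20 µg/mL, 177, 219 and 177 at 100 µg/mL, and 2200, 2283 and 2022 at 500 µg/mL. The medium dose libraries lay above the vehicle and low dose libraries, and the high dose libraries far above these. The log2 fold change of CXCL8 was 4.42 at 500 µg/mL (SE 0.113), with an adjusted p below the smallest number that R can hold, and 0.93 at 100 µg/mL (adjusted p 9.80e-12, SE 0.127). IL6, which encodes the cytokine interleukin-6, rose from 79.2 to 154 at 100 µg/mL and 887 at 500 µg/mL (log2 change 3.48, adjusted p 7.87e-118, SE 0.150). The chemokine genes CXCL2 and CXCL3 rose by 5.21 and 5.22 on the log2 scale at 500 µg/mL, from vehicle means of 6.32 and 6.03 normalised counts.

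The adhesion molecule gene ICAM1 (1.68), the immediate early gene IER3 (3.45), the pentraxin gene PTX3 (2.60) and GADD45B (1.04), a stress response gene, were higher DEGs at 500 µg/mL. At 100 µg/mL the same 4 genes were higher DEGs too, at 0.73, 0.87, 1.07 and 0.61. The GADD45B call at 100 µg/mL did not hold without vehicle replicate 2 or without medium dose replicate 1, where the lowest value was 0.51, nor with scaling to total counts, at 0.50. Genes on the opposite strand cover 25.4% of the exon bases of ICAM1 and 38.9% of those of IER3. CCL2, which encodes a monocyte chemokine, was the 1 lower DEG of the list at 100 and at 500 µg/mL. It was at 486, 438 and 511 normalised counts with vehicle, 365, 308 and 263 at 20 µg/mL, 274, 239 and 247 at 100 µg/mL, and 222, 195 and 203 at 500 µg/mL. Its log2 fold change was -0.61 at 20 µg/mL (adjusted p 2.71e-05, SE 0.117), -0.92 at 100 µg/mL (adjusted p 4.45e-13, SE 0.120) and -1.21 at 500 µg/mL (adjusted p 3.12e-22, SE 0.122). The CCL2 call at 20 µg/mL held in 5 of 12 fits that each left out 1 library, with log2 fold changes from -0.74 to -0.51, and the PTGS2 call in all 12. With scaling to total counts CCL2 was at -0.65, past the fold threshold, and was still not called. Loss of the CCL2 call was therefore not always a fall under that threshold. PTGS2, which encodes the prostaglandin enzyme COX-2, was lower at 20 µg/mL (log2 change -0.65, adjusted p 1.99e-26, SE 0.0576), at -0.41 at 100 µg/mL (adjusted p 1.11e-11) and at 0.32 at 500 µg/mL (adjusted p 4.42e-08), the last 2 under the fold threshold.

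Per kilobase, the inhibitors spanned much the same range of levels as the subunits. With vehicle, NFKBIA stood at 536 ± 2.61 normalised counts per kilobase (SD, n = 3), close to RELA at 571 ± 18.6. NFKBIE was at 98.6 ± 4.82 and TNFAIP3 at 86.0 ± 6.50, while REL (30.4 ± 0.650) and BIRC3 (30.3 ± 0.241) did not differ beyond their spread and NFKBIZ was lowest of the 10 at 24.4 ± 3.44. At 500 µg/mL NFKBIA was at 670.3 ± 8.35, TNFAIP3 at 183 ± 7.08, NFKBIE at 152 ± 12.2, NFKBIZ at 93.1 ± 4.84 and BIRC3 at 78.0 ± 0.977. REL, at 31.5 ± 2.25, was then the lowest of the 10 genes.

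The genes most like NFKBIZ, RELB and BIRC3 were sought among 11254 genes whose mean normalised count was at least 100, by Pearson's r over the 12 libraries on log2(normalised count + 1). The 4 dose groups set most of such a correlation, so it is given as a description. For NFKBIZ they were MTMR4 (0.991), OIP5-AS1 (0.991) and ANXA1 (0.989), for RELB they were ARFGEF3 (0.997), ERN1 (0.996) and GADD45A (0.996), and for BIRC3 they were MFSD2A (0.993), CYLD (0.992) and LIF (0.991). An r over 0.9 was reached by 1869 genes with NFKBIZ, 2080 with RELB and 1650 with BIRC3. CYLD encodes a deubiquitinase that restrains NF-kB signalling and LIF a cytokine, and both are in the lists above.

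The summed levels of the neuron and epithelial markers fell with dose. The summed level of the neuron markers was 3028 to 3176 with vehicle and 1205 to 1221 at 500 µg/mL, where SNAP25 and TUBB3 fell and MAP2 rose. That of the epithelial markers was 4861 to 5073 and 1797 to 1888, mostly KRT18, and that of the endothelial markers 583 to 620.3 and 639 to 696. The astrocyte and glioma sum was 176723 to 185418 with vehicle and 183553 to 186345 at 500 µg/mL, while its members NES and SLC1A3 fell. The part of these shifts in the changes of the NF-kB genes was not tested.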

How the data were processed

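RNA from 12 libraries of SW1783 cells was sequenced. The authors deposited expected counts per gene from RSEM, after STAR alignment to GRCh38 with an Ensembl annotation, and 8.75% of the values were not whole. Tool versions in the submitters' processing notes were STAR 2.7.3a, Trim Galore 0.6.5, FastQC 0.11.9 and RSEM 1.3.3. The study names a directional kit for mRNA libraries, and whether RSEM was told the strand and how mRNA was selected are not given in the sources used here. RSEM shares reads among genes they fit. The deposited counts were rounded here and fitted with DESeq2 1.42.0 in R 4.3.3 on the 12 libraries together, with no covariate beside group, the two-sided Wald test, independent filtering at 0.05, adjustment over all genes by Benjamini-Hochberg, and a fold threshold of 1.5. The fit was checked on simulated counts, with the same spread parameter for every gene and changed genes in the high dose group alone. That setting is simpler than these data. edgeR 4.0.16 was an alternative, beside other scalings, filters, thresholds, rounding, the replicate block and leaving out each library.

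Symbols, coordinates (1-based) and canonical transcript lengths came from GENCODE v44 on GRCh38, which held 93.2% of the IDs and 99.9% of counts. Promoter windows came from RefSeq (GRCh38.p14). Replicate pairs differed by 1.99 to 3.55 in chi-square per degree of freedom, more than counting noise, and all were kept as separate. Same-numbered libraries of the medium and low dose deviated together from their group means (r of 0.158, 0.124 and 0.193 over 11264 genes). Those of the high and medium dose gave 0.0551, 0.0355 and 0.221, and those of each dose and vehicle gave values under 0. At a set limit of r over 0.1 in every pair, only the medium and low dose libraries counted as paired by number. This rests on the pattern rather than on any label, and the values were not tested.

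The 10 genes and all lists were chosen with earlier results of these data known. Beside the 10, the text names from each list the genes called at the high dose that averaged at least 100 normalised counts, at most 3 rises and 3 falls, and those called at the low or medium dose. Of 30 target genes 29 had a matched ID. A list is described by its counts and its median over genes with a mean of at least 10.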

Additional observations from a re-analysis of the deposited data

How the results depend on the processing

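The 6 calls among the 10 genes at the high dose and the 8 in the likelihood ratio test stayed within 1.5 times of those counts under all alternatives that gave a value (the likelihood ratio test had none in fits of 2 groups or under another threshold). Scaling to total counts left 0 of the 10 genes called at the medium dose, 0 between medium and low dose, and 1 of the other pathway genes at the low dose. Independent filtering at 0.1 and rounding down each left 1 of the latter. By adjusted p alone the counts for the 10 genes were 3 at the medium dose, 8 between high and medium and 3 between medium and low, and for the other pathway genes 63, 42 and 5 at the high, medium and low dose. A fold threshold of 2 gave 0 at the medium dose and 0 between medium and low for the 10 genes, and 21, 5 and 0 for the others. A Wald test against the fold threshold gave 0 and 0 for the 10 genes, and 4 at the medium and 0 at the low dose for the others. These thresholds differ by construction, and the cause of the other shifts was not tested.

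With each library left out in turn, the count at the medium dose was 1 to 2 (2 without vehicle replicate 2), between medium and low 0 to 1 (0 without low replicate 3 or medium replicate 3), and for the other pathway genes at the low dose 1 to 2 (1 without vehicle replicate 3, any of the 3 low dose libraries, medium replicate 2 or 3, or high replicate 3, each time through the loss of CCL2). The replicate number was also fitted as a block, in DESeq2 and in edgeR. The counts for the 10 genes were then 6, 1 and 0 at the high, medium and low dose. They were 5 between high and medium and 1 between medium and low. The block gives all groups the same replicate effect. It therefore cannot model a pairing of the medium and low dose libraries alone, and the effect of such a pairing on the calls was not tested. For 6 of the 12 libraries, the mean correlation with libraries of the other groups was highest for those of their own number. With 3 numbers to choose from, some such matches arise without any pairing. Over the members and alternatives, 1199 of 1223 values kept their side of the thresholds, 13 lost and 11 gained a call, and 0 called values changed sign. For the other named genes, followed here at the high dose against vehicle alone, the figures were 662 of 676, 13, 1 and 0. The calls of these genes at the medium and low dose, such as those of GADD45B and CCL2, are not in these figures. Uncalled values were judged by their side of the thresholds alone. DESeq2 gave genes with a mean under about 263 no adjusted p at the low dose because of its filtering in that comparison, and the NFKBIE call and the RELB calls at the medium dose rest on values next to the fold threshold.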
